A study of Arabidopsis thaliana with 11 samples.

Results

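The nuclear genes of Arabidopsis thaliana for the 2 photosystems, for their light-harvesting antenna and for Rubisco were examined in developing seeds. The set was chosen by locus identifier. It held the LHCB and LHCA antenna genes, the PSA and PSB subunit genes, the RBCS small-subunit genes of Rubisco and its activase RCA, 45 genes of the 28523 listed. Seeds came from reciprocal crosses between Columbia (Col) and Landsberg erecta (Ler), a pair of ecotypes, and were dissected 7 to 9 days after pollination, when the embryo passes from torpedo stage into early maturation. Sequence differences between the ecotypes assign a read to the mother or the father, and only such allele-assigned reads are in the tables.

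The 11 RNA-seq libraries fell into 6 groups, and a cross is written with the mother first. Wild-type pure endosperm had 3 libraries, replicates 1 and 2 from Col × Ler and replicate 3 from Ler × Col. Wild-type embryo had 3 libraries in the same order of crosses. Wild-type full endosperm had 1 library from Col × Ler (replicate 1) and 1 from Ler × Col (replicate 2), and the labels do not say how the full and pure preparations differ. Replicate 1 of pure endosperm and of embryo carry "LCM" in their titles and were the shallowest of their groups. Each mutant gave 1 endosperm library labelled as pure: a dme mother in Columbia-gl crossed with wild-type Ler, a fie mother in Ler crossed with wild-type Columbia-0, and a wild-type Ler mother crossed with a met1 father. The dme-2 and fie-1 parents were heterozygous and the met1-6 father homozygous, per the labels' protocols, which give met1-6 as Col-gl where the sample label gives Columbia-0. Which seeds of the heterozygous mothers were taken is not given in the sources used here. DEMETER removes DNA methylation, FIE is a Polycomb subunit and MET1 maintains CG methylation.

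Light-harvesting chlorophyll proteins funnel light energy to the reaction centres of photosystem II (PSII, the LHCB proteins) and photosystem I (PSI, the LHCA proteins). Subunits encoded by PSB and PSA genes complete those reaction centres in the chloroplast, and Rubisco fixes carbon dioxide. The Arabidopsis embryo greens during mid-seed development and loses its chlorophyll again at maturity, and the young endosperm also holds green plastids.

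Allele-assigned reads per library ranged from 358142 to 4828301, and the mutated genes could not check the labels. FIE (AT3G20740) had no read in any library and MET1 (AT5G49160) at most 12. DME (AT5G04560) had 52.1 CPM in the dme library and from 148 to 204 CPM in pure endosperm, but also 39.8 CPM in the fie library. CPM are counts scaled to library size and by TMM factors that ran from 0.692 to 1.46. Marker lists set the libraries apart. Of 15 seed coat genes, 11 had reads in at least 1 library, and they summed to between 455 and 4664 CPM in pure endosperm, 9317 and 13563 CPM in full endosperm, and at most 440 CPM in embryo. The same list summed to 38017 CPM in the dme library, 18765 CPM in the fie library and 11761 CPM in the met1 library. Of 11 endosperm genes, 8 had reads, and they summed to between 13810 and 191696 CPM in pure endosperm, 635 CPM in fie, 676 CPM in dme and 195486 CPM in met1. In the highest pure library and in met1 nearly all of this sum came from EPR1. The compared genes of the list went both ways in dme and fie, as given below. In embryo the endosperm list was at 50.7, 1324 and 8800 CPM. In bulk tissue, fewer cells of a type and less RNA per cell cannot be told apart.

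The measured part of the set was mainly antenna and photosystem genes, since Rubisco was nearly absent from the allele-assigned reads. Of the 45 genes, 23 had at least 100 reads over the 11 libraries, 7 had between 1 and 99, and 15 had none. Among all genes 37.2% had no read, beside 33.3% of this set. The 15 without a read were LHCB1.5, LHCB2.3, LHCB4.3, LHCA1, PSAE1, PSAH2, PSAL, PSAN, PSAO, PSBP1, PSBQ1, PSBR, PSBY, RBCS1A and RCA. A gene with no usable difference between the ecotypes gives no read whatever its level, so the lack of reads does not show that a gene is silent. Which of these genes hold a usable difference was not tested. The level of one gene cannot be set against that of another here, because the number of ecotype differences and the transcript length differ between genes.

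Several of the genes are near-identical copies whose reads the counting could split. LHCB1.1 (AT1G29920), LHCB1.2 (AT1G29910) and LHCB1.3 (AT1G29930), adjacent genes for the main trimeric antenna of PSII, shared 95.65% to 96.39% of their coding bases in RefSeq (TAIR10.1), with identical stretches of up to 119 bases. The neighbours LHCB2.1 (AT2G05100) and LHCB2.2 (AT2G05070) shared 96.62%, with an identical stretch of 152 bases, and RBCS1B, RBCS2B and RBCS3B shared 96.7% to 97.25%. PSAD1 and PSAD2 were further apart at 86.28%, PSBO1 and PSBO2 at 83.38% and LHCB4.1 and LHCB4.2 at 81.1%. Bases 25 to 84 of the coding sequences, counted from the start codon, are the 60-base stretch where the 3 LHCB1 copies differ most. They differ at 8 of these 60 positions and at 47 of all 804. Capitals mark the positions where the 3 copies do not all agree.
LHCB1.1: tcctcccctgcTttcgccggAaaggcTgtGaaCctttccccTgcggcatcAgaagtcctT
LHCB1.2: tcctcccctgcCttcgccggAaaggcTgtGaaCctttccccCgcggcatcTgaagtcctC
LHCB1.3: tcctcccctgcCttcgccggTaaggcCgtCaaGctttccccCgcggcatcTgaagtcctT
Values of LHCB1.1, LHCB1.2, LHCB1.3, LHCB2.1 and LHCB2.2 below are therefore uncertain.

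Promoter sequence of 2 of these copies and of LHCB6 is shown because LHCB1.2 was called in the tissue contrast described below and LHCB1.1 was not, a difference that was not itself tested, and because LHCB6 lay within the pure endosperm range in dme and fie. The 250 bases before the annotated start come from RefSeq (TAIR10.1), in the direction of the gene, all on the minus strand. Both strands were searched for 4 motifs known from light-regulated and clock-regulated plant promoters, and capitals mark the matches. The G-box was searched as CACGTG on either strand. The element of CCA1 type, named for a clock protein that binds it, was searched as AANAATCT, and the evening element as AAAATATCT. For the I-box, a motif common in promoters of photosynthesis genes, the letters were GATAAG.
LHCB1.1, chr1:10475970-10476219: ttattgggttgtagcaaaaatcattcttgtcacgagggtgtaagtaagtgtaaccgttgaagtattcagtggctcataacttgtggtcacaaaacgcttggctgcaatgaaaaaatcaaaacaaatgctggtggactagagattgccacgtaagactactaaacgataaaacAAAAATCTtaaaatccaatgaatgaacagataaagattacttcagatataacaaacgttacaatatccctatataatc
LHCB1.2, chr1:10473503-10473752: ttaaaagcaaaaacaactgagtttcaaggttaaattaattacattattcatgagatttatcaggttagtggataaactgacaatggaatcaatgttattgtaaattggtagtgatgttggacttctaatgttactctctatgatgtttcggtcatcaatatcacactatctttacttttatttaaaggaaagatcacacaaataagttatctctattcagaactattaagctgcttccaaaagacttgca
LHCB6, chr1:5447881-5448130: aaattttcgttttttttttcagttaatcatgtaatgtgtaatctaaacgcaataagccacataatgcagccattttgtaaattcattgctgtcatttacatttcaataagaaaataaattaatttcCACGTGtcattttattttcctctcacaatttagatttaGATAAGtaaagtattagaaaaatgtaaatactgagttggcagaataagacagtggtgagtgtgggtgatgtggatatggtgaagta
LHCB6 held 1 G-box and 1 I-box, LHCB1.1 held 1 CCA1-type match and LHCB1.2 held none of the 4 motifs in this window. The LHCB6 motifs were not particular to it: PSBQ2, below the pure endosperm range in dme and fie, held 2 G-boxes and 1 I-box. Of the 45 promoters, 9 held a G-box, 11 an I-box, 10 a CCA1-type match and 1 an evening element, or 24.44%, 22.22% and 2.22% for the last 3. Over 27443 protein-coding genes the shares were 6.49%, 12.29%, 13.37% and 2.36%. Among the 23 genes of the set with at least 100 reads they were 21.74%, 26.09%, 13.04% and 4.35%, so the CCA1-type share there was near that of all genes. Such matches are letters in a window and say nothing of binding.

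The first comparison asked whether the photosystem and antenna genes differed between embryo and pure endosperm. LHCA5, LHCB3, LHCB1.2, PSBO2 and LHCB6 were higher in embryo, by 2.01-fold to 3.92-fold, and no gene of the set was lower. These 5 of 22 tested genes stand beside a background of 13.5% of 7329 genes called higher and 13.7% called lower in embryo. All 22 estimates were above 0, with a median log2 difference of 0.81, beside a median of 0.05 over all genes tested. Without pure endosperm replicate 3, 4 of 21 estimates were below 0. The other 17 genes did not pass the threshold and ran from 0.03 to 0.97 on the log2 scale. The test was edgeR's quasi-likelihood test on summed allele counts with the library set as a block and Benjamini-Hochberg adjustment over all genes tested, and calls had an adjusted p under 0.05.

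**Figure D1:**
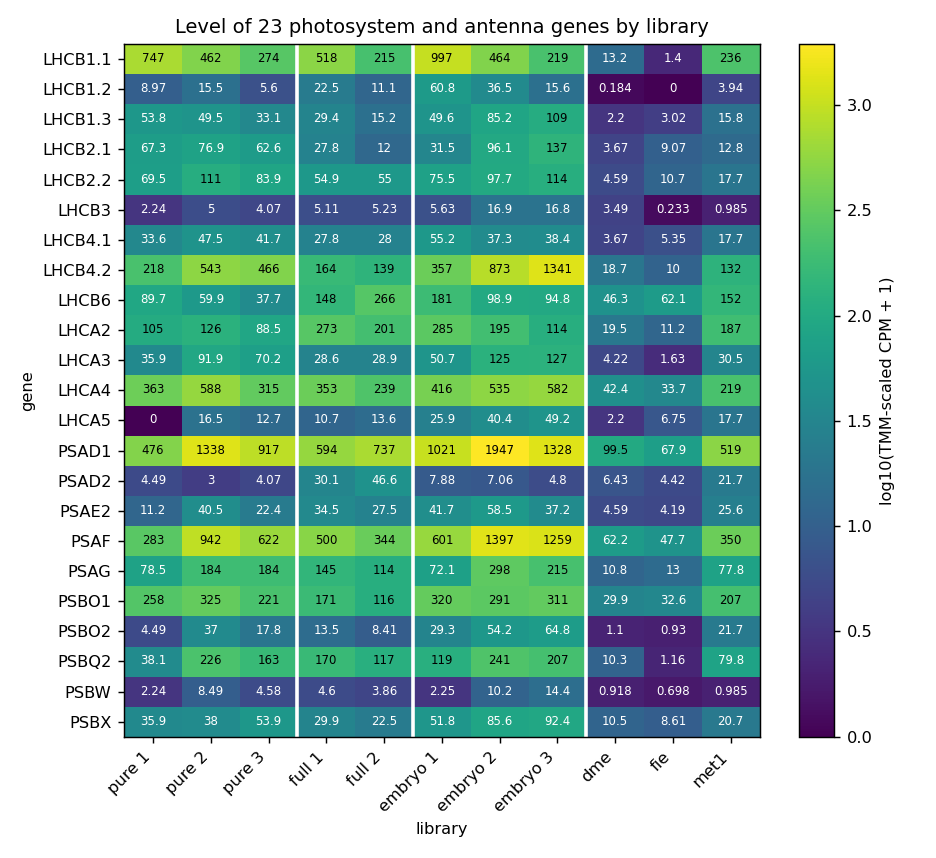
Level of the 23 genes with at least 100 reads in each of the 11 libraries, as TMM-scaled CPM (numbers) on a log10 colour scale of CPM + 1. Rows are to be read from left to right only, since levels cannot be compared between genes; the dme and fie columns are the darkest in most rows.

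**Figure D2:**
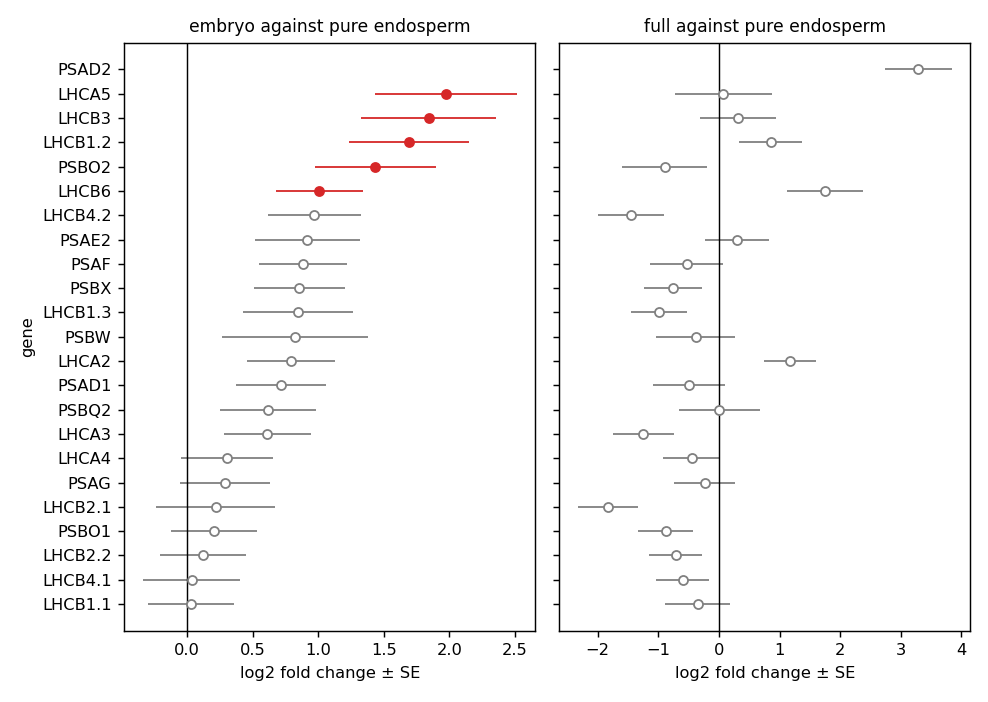
Log2 fold change with its SE (bars) for each gene in embryo against pure endosperm (left; 3 libraries against 3) and in full against pure endosperm (right; 2 against 3). Filled red points passed an adjusted p of 0.05: 5 genes on the left, all above 0, and none on the right. PSAD2 was not tested in the left comparison.

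Among the major antenna genes of PSII, LHCB1.2 rose in embryo and its neighbour LHCB1.1 did not pass. LHCB1.1 stood at 747, 462 and 274 CPM in pure endosperm (replicates 1 to 3), at 518 and 215 CPM in full endosperm and at 997, 464 and 219 CPM in embryo. The order was the same in both tissues, with the LCM-titled library highest and the Ler × Col library lowest, and the fitted log2 difference of embryo over pure endosperm was 0.03 ± 0.33 (SE, 3 libraries each; adjusted p = 0.959 by edgeR). LHCB1.2 stood at 8.97, 15.5 and 5.60 CPM in pure endosperm, 22.5 and 11.1 CPM in full endosperm and 60.8, 36.5 and 15.6 CPM in embryo. Its embryo level exceeded the endosperm level within each of the 3 library sets, and the groups lay just apart, with a log2 difference of 1.69 ± 0.46 (adjusted p = 0.0203, edgeR). LHCB1.3 was at 53.8, 49.5 and 33.1 CPM in pure endosperm, 29.4 and 15.2 CPM in full endosperm and 49.6, 85.2 and 109 CPM in embryo. The pure and embryo ranges of LHCB1.3 overlapped and its log2 difference of 0.84 ± 0.42 did not pass (adjusted p = 0.167, edgeR).

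LHCB3 (AT5G54270), a partner of LHCB1 and LHCB2 in antenna trimers, had few reads throughout. It was at 2.24, 5.00 and 4.07 CPM in pure endosperm, 5.11 and 5.23 CPM in full endosperm and 5.63, 16.9 and 16.8 CPM in embryo. Embryo and pure endosperm did not overlap, and the log2 difference was 1.84 ± 0.52 (adjusted p = 0.0242, edgeR), although the LCM-titled endosperm library held only 1 LHCB3 read. LHCB2.2 was at 69.5, 111 and 83.9 CPM in pure endosperm, 54.9 and 55.0 CPM in full endosperm and 75.5, 97.7 and 114 CPM in embryo. Its tissues overlapped (log2 0.12 ± 0.33), as did those of LHCB2.1, which ranged from 62.6 to 76.9 CPM in pure endosperm and from 31.5 to 137 CPM in embryo. LHCB1.4 had 10 reads in all, 8 of them in embryo replicates 2 and 3, and was not tested.

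The minor antenna proteins, which sit between the trimers and the PSII core, gave 3 measured genes. LHCB6 (AT1G15820), the CP24 protein, was at 89.7, 59.9 and 37.6 CPM in pure endosperm, 148 and 266 CPM in full endosperm and 181, 98.9 and 94.8 CPM in embryo. Embryo lay above pure endosperm without overlap, at a log2 difference of 1.01 ± 0.33 (adjusted p = 0.0448, edgeR), and both full endosperm libraries also lay above the pure range. LHCB4.2 (AT3G08940), a CP29 protein, was at 218, 543 and 466 CPM in pure endosperm, 164 and 139 CPM in full endosperm and 357, 873 and 1341 CPM in embryo. Each embryo library exceeded the endosperm library of its set, but the ranges overlapped and the log2 difference of 0.97 ± 0.36 did not pass (adjusted p = 0.0689, edgeR). LHCB4.1 (AT5G01530) was near level, with 33.6 to 47.5 CPM in pure endosperm and 37.3 to 55.2 CPM in embryo. LHCB5 had 7 reads in all.

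Of the PSI antenna, LHCA5 (AT1G45474), a scarce member that takes part in PSI–NDH supercomplexes, gave the largest fitted difference of the set. LHCA5 had no read in the LCM-titled endosperm library and was at 16.5 and 12.7 CPM in the other pure libraries, 10.7 and 13.6 CPM in full endosperm and 25.9, 40.4 and 49.2 CPM in embryo. The embryo libraries all lay above the endosperm libraries, and the log2 difference was 1.97 ± 0.54 (adjusted p = 0.0226, edgeR). LHCA4 (AT3G47470), which carries red-shifted chlorophylls, was at 363, 588 and 315 CPM in pure endosperm, 353 and 239 CPM in full endosperm and 416, 535 and 582 CPM in embryo. LHCA2 (AT3G61470) was at 105, 126 and 88.5 CPM in pure endosperm, 273 and 201 CPM in full endosperm and 285, 195 and 114 CPM in embryo. Neither passed, with log2 differences of 0.30 ± 0.35 for LHCA4 and 0.79 ± 0.34 for LHCA2. LHCA3 (AT1G61520) did not pass either, at 0.61 ± 0.33.

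PSI subunit genes were all above 0 in the fit and none passed. PSAD1 (AT4G02770), a stromal subunit that docks ferredoxin, was at 476, 1338 and 917 CPM in pure endosperm, 594 and 737 CPM in full endosperm and 1021, 1947 and 1328 CPM in embryo. PSAF (AT1G31330), the plastocyanin-docking subunit, was at 283, 942 and 622 CPM in pure endosperm, 500 and 344 CPM in full endosperm and 601, 1397 and 1259 CPM in embryo. Both genes were higher in embryo within every library set while their ranges overlapped across sets, at log2 differences of 0.72 ± 0.34 and 0.88 ± 0.34. PSAE2 (AT2G20260), another stromal subunit, was at 11.2, 40.5 and 22.4 CPM in pure endosperm, 34.5 and 27.5 CPM in full endosperm and 41.7, 58.5 and 37.2 CPM in embryo. PSAE2 gave 0.92 ± 0.40, and PSAG (AT1G55670), an outer subunit, gave 0.29 ± 0.34. PSAH1 and PSAK had 1 and 2 reads.

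Of the oxygen-evolving complex of PSII, the lesser-used PSBO2 isoform rose in embryo and PSBO1 did not pass, a difference between isoforms that was not itself tested. PSBO1 (AT5G66570), the main manganese-stabilising protein, was at 258, 325 and 221 CPM in pure endosperm, 171 and 116 CPM in full endosperm and 320, 291 and 311 CPM in embryo. PSBO2 (AT3G50820) was at 4.49, 37.0 and 17.8 CPM in pure endosperm, 13.5 and 8.41 CPM in full endosperm and 29.3, 54.2 and 64.8 CPM in embryo. The PSBO2 ranges overlapped, but embryo was higher in each set, and the log2 difference was 1.43 ± 0.46 (adjusted p = 0.0432, edgeR). For PSBO1 it was 0.20 ± 0.33. PSBQ2 (AT4G05180), an extrinsic subunit, was at 38.1, 226 and 163 CPM in pure endosperm, 170 and 117 CPM in full endosperm and 119, 241 and 208 CPM in embryo, at 0.61 ± 0.37. The small subunits PSBX (AT2G06520) and PSBW (AT2G30570) gave 0.86 ± 0.35 and 0.82 ± 0.55, and neither passed.

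The Rubisco genes gave almost no values. RBCS3B (AT5G38410) had 24 reads in all, 13 of them in embryo replicate 2, where it stood at 5.10 CPM. RBCS1B (AT5G38430) had 8 reads, 6 of them in that library, and RBCS2B (AT5G38420) had 7, all in embryo replicates 1 and 2. Embryo replicate 3 held none of any of them, so no comparison was made.

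The embryo calls depended on how the libraries were scaled and blocked. With library totals in place of TMM factors, 14 of 22 genes were called higher, while the median of all genes moved to 0.49 and that of the set to 1.26. Without the library-set block, none passed, at 5 calls with it. Leaving out pure endosperm replicate 2 or embryo replicate 2 left LHCA5 alone, leaving out replicate 3 of either tissue left LHCA5 and LHCB1.2, and leaving out replicate 1 of either gave 10 calls.

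Other genes of the photosynthetic pathway were read from lists by counts. Of 8 tested chlorophyll synthesis genes (13 listed), 2 were called higher in embryo and none lower, with a list median of 1.06 on the log2 scale: CHLI1, a magnesium chelatase subunit (1.28 ± 0.33, adjusted p = 0.0159), and GUN4, its activator (1.66 ± 0.50, adjusted p = 0.0330). Of 9 Calvin cycle genes (13 listed), 2 were higher and none lower, with a median of 0.27: the aldolase FBA2 (1.4 ± 0.36, adjusted p = 0.0162) and the regulatory protein CP12-2 (1.57 ± 0.52, adjusted p = 0.0463). Of 6 electron transport and ATP synthase genes (13 listed), 3 were higher and none lower, with a median of 1.17. These were the plastocyanin PETE1 (2.1 ± 0.37, adjusted p = 0.0025), the photoprotective PSBS (1.39 ± 0.36, adjusted p = 0.0167) and the Rieske protein PETC (1.27 ± 0.41, adjusted p = 0.0425), all by edgeR. Of 5 tested regulators (12 listed), 2 were higher and none lower, at a median of 0.96. GLK2, a transcription factor of chloroplast development, stood at 1.4 ± 0.35 (adjusted p = 0.0147, edgeR). GNC, a GATA factor of greening, had 0, 1.00 and 0.509 CPM in pure endosperm and 22.5, 14.1 and 26.4 CPM in embryo, at 4.75 ± 0.70 (adjusted p = 0.000909, edgeR).

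Marker lists moved with the same contrast. Of 6 tested seed coat genes 5 were lower in embryo, and all 4 tested endosperm genes were lower. The part of these tissue shares in the values of the set was not tested.

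Full and pure endosperm were compared next. No gene of the set passed in either direction among 23 tested, beside a background of 0% of 9034 genes called higher and 0% called lower by edgeR. At an unadjusted p under 0.05, 3 genes of the set were higher and 3 lower in full endosperm, beside 923 and 688 of all genes. DESeq2 called 1 gene of the set higher, PSAD2, and none lower, beside 417 calls over all genes. The median of the set was -0.45 on the log2 scale, with 15 of 23 estimates below 0, and that of all genes was 0.02.

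PSAD2 (AT1G03130), the second copy of the PSAD subunit, was named after its values were seen. It had 2, 6 and 8 reads in the pure endosperm libraries, or 4.49, 3.0 and 4.07 CPM, and 7.88, 7.06 and 4.80 CPM in embryo, against 30.1 and 46.6 CPM in full endosperm. The log2 difference of full over pure endosperm was 3.29 ± 0.55 (adjusted p = 0.117, edgeR). Its reads in full endosperm were 55.9% and 66.8% maternal. Also with an unadjusted p under 0.05 by edgeR, LHCB6 and LHCA2 lay above every pure library in full endosperm, at 1.75 ± 0.63 and 1.17 ± 0.43. LHCB2.1, LHCB4.2 and LHCA3 lay below every pure library, at -1.83 ± 0.49, -1.45 ± 0.54 and -1.24 ± 0.51, and none of these passed the adjusted threshold. Other genes lay apart without such a p: LHCB3 above, and LHCB1.3, LHCB2.2, LHCB4.1, PSBO1 and PSBX below. The share of all genes that lie apart is not given here.

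The absence of calls depended on the libraries and settings used. Leaving out pure endosperm replicate 2 gave PSAD2 as the only call of the set, beside 430 calls over all genes. Without pure endosperm replicate 1, 3 genes were called higher in full endosperm (PSAD2, LHCB6 and LHCA2) and 6 lower (LHCB2.1, LHCB4.2, LHCA3, PSAF, PSBO1 and PSBO2), while calls over all genes went from 0 to 2253. Seed coat genes summed higher in both full libraries than in any pure library, and the part of this in the values was not tested. No tested gene of the chlorophyll synthesis (8), Calvin cycle (9), electron transport (6) or regulator (4) lists was called between full and pure endosperm by edgeR.

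The share of maternal reads asked whether any of these genes is expressed mainly from 1 parent. None was called in any wild-type tissue. Endosperm receives 2 maternal genomes and 1 paternal genome, so the reference share was 66.7% maternal there and 50% in embryo. The fit by edgeR covered maternal and paternal counts of all 11 libraries together. In pure endosperm, 0 of 20 tested genes passed, beside 4.16% of 7327 genes called maternal and 0.628% called paternal. In full endosperm, 0 of 23 passed, beside 19.1% of 9174 genes called maternal and 0.48% called paternal. In embryo, 0 of 22 passed, beside 0.789% of 5447 genes called maternal and 0.0184% called paternal. No gene of the set had an unadjusted p under 0.05 in these 3 tests, and DESeq2 called none.

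Averages over the replicates are given for the most-read gene of each role that was not called toward Col, since a Col bias moves the maternal share with the cross. The maternal share was 59.6% ± 11.7 for LHCB2.1, 58.8% ± 12.6 for LHCB4.2, 65.5% ± 4.0 for LHCA2, 64.9% ± 4.4 for PSAD1 and 64.6% ± 3.3 for PSBO1 in pure endosperm (SD, n = 3 each). It was 59.7% ± 4.5 for LHCB2.1, 54.6% ± 6.3 for LHCB4.2, 51.6% ± 9.3 for LHCA2, 50.4% ± 4.9 for PSAD1 and 51.3% ± 5.5 for PSBO1 in embryo (SD, n = 3 each). LHCB4.2 came nearest to a tissue difference, with 44.3%, 65.9% and 66.3% maternal in pure endosperm and 52.7%, 49.4% and 61.6% in embryo. Relative to the doses, its log2 maternal bias was lower in pure endosperm than in embryo by an estimate of -0.65 ± 0.28 (unadjusted p = 0.0256, adjusted p = 0.578, edgeR). None of 20 tested genes passed in that comparison, beside 0.899% of 5115 genes called more maternal and 0.293% called less maternal in pure endosperm than in embryo, and 1 of the 20 had an unadjusted p under 0.05.

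Full endosperm was where the set and all genes stood furthest apart among the wild-type groups. The median log2 maternal bias over all tested genes was 0.48 in full endosperm and that of the set -0.13, with 16 of 23 estimates below 0. Without full endosperm replicate 1 the median of the set turned to 0.05, with 10 of 23 below 0. In pure endosperm the medians were 0.07 and -0.09, and the latter turned to 0.03 without pure endosperm replicate 3. Set against the median of all genes in place of the genome dose, LHCB1.1, LHCB4.2, PSAD1, PSAF and PSBQ2 of full endosperm were called less maternal, beside 1067 of 9174 genes called in either direction. With full endosperm replicate 1 left out, PSBQ2 was called against the genome dose.

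**Figure D3:**
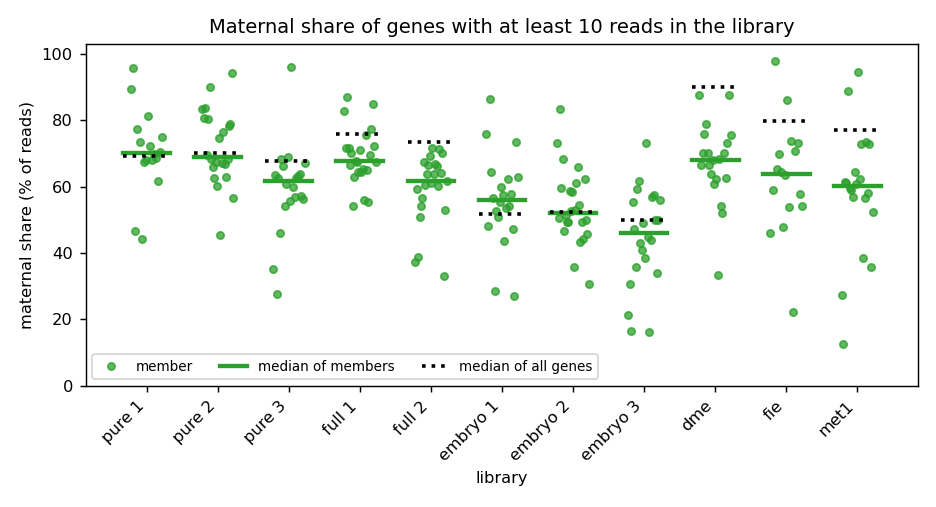
Maternal share (percent of allele-assigned reads) of each gene of the set with at least 10 reads in the library (points), with their median (green line) and the median of all genes with at least 10 reads (dotted line), for the 11 libraries. In dme, fie and met1 the dotted lines stand at 89.9%, 79.8% and 77.1% and the green lines at 68.1%, 63.9% and 60.3%.

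Col and Ler alleles of the same gene were compared through the reciprocal crosses, which separate ecotype from parent. In endosperm 5 of 23 tested genes were called toward the Col allele and none toward Ler, beside 13.3% of 10254 genes called toward Col and 8.52% toward Ler. In embryo 5 of 22 were called toward Col and none toward Ler, beside 9.58% of 5447 genes toward Col and 5.67% toward Ler. LHCB1.1, LHCB1.3, PSBQ2 and LHCA4 were called in both tissues, LHCB2.2 in endosperm and PSAE2 in embryo. A difference of the Col bias between tissues was not tested.

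LHCB1.1 had most of its reads from Col whichever parent was Col. In embryo its Col share was 75.9%, 73.0% and 78.7%, beside 89.5%, 83.4% and 64.7% for pure and 82.8% and 62.8% for full endosperm. The endosperm values of replicate 3 of pure and replicate 2 of full come from a Ler mother, where equal alleles would give 33.3% Col, and every library lay above its expected share. The log2 ratio of Col over Ler was 1.64 ± 0.15 in endosperm (adjusted p = 1.26e-26) and 1.71 ± 0.22 in embryo (adjusted p = 2.51e-08, edgeR). LHCB1.3 behaved alike, with 86.4%, 83.4% and 83.5% Col in embryo, beside 95.8%, 83.8% and 72.3% for pure and 87.0% and 61.2% for full endosperm. Its log2 ratios were 1.88 ± 0.28 (adjusted p = 4.53e-10) and 2.38 ± 0.34 (adjusted p = 4.66e-07, edgeR). LHCB1.2 had 0.40 ± 0.39 in endosperm and 0.57 ± 0.55 in embryo and did not pass. Reads of these copies could land on each other, so the allele ratios of single LHCB1 genes are uncertain.

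PSBQ2 held 73.6%, 62.3% and 65.9% Col in embryo, beside 70.6%, 79.0% and 43.6% for pure and 85.0% and 66.9% for full endosperm. Each of the 8 libraries lay above its expected share, most widely in full endosperm replicate 2, and the log2 ratios were 1.24 ± 0.18 in endosperm (adjusted p = 3.09e-10) and 0.97 ± 0.27 in embryo (adjusted p = 0.00957, edgeR). LHCA4 held smaller ratios of 0.46 ± 0.15 (adjusted p = 0.0109) and 0.57 ± 0.19 (adjusted p = 0.0291, edgeR), with 57.5%, 58.4% and 61.6% Col in embryo. LHCB2.2 reached 0.74 ± 0.22 in endosperm (adjusted p = 0.0046, edgeR), but in full endosperm replicate 1 its 66.5% Col did not exceed the expected 66.7%. Without pure endosperm replicate 3, LHCB2.2 was at 0.37 and LHCA4 at 0.32, neither called. Neither was called without pure endosperm replicate 2. In embryo, LHCA4 was lost without embryo replicate 1 or 2 and PSAE2 without embryo replicate 2. PSAE2 held 62.2%, 65.8% and 83.9% Col in embryo, at 1.62 ± 0.44 (adjusted p = 0.00629, edgeR), and did not pass in endosperm (0.51 ± 0.28). LHCA5 was the gene nearest to a Ler bias, at -0.89 ± 0.39 in endosperm and -1.07 ± 0.45 in embryo, and passed in neither. It was called toward Ler in endosperm when either full endosperm library was left out, and in embryo without pure endosperm replicate 1 or 3 or without either full endosperm library.

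**Figure D4:**
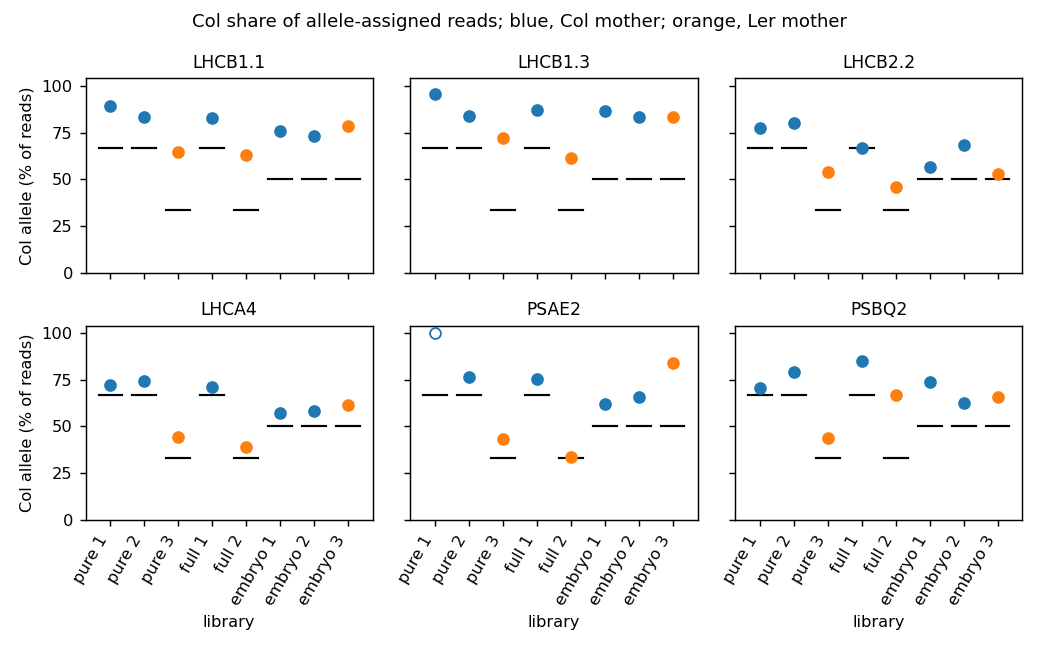
Col share (percent of allele-assigned reads) of 6 genes called in endosperm or embryo, for the 8 wild-type libraries. Blue points have a Col mother and orange points a Ler mother, the open point has under 10 reads, and black dashes mark the share that equal alleles would give; all points of LHCB1.1, LHCB1.3, LHCA4, PSAE2 and PSBQ2 lie above their dash, and 7 of the 8 of LHCB2.2.

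The mutant libraries asked what happens to these genes in endosperm of a dme or fie mother or a met1 father. With 1 library per mutant there is no replicate check and no test. A level counted as outside when it was at least 2-fold above the highest or below the lowest pure endosperm library, among genes with a mean of at least 5 CPM. A gene under 5 CPM in the mutant could reach this mean only through its pure values. Among genes below the range, this held in dme for LHCB1.2 (0.184 CPM), LHCB1.3, LHCB2.1, LHCB2.2, LHCB4.1, LHCA3, PSAE2 and PSBO2. In fie it held for LHCB1.1, LHCB1.2, LHCB1.3, LHCA3, PSAE2, PSBO2 and PSBQ2. The places of these genes rest on the same pure values that let them into the comparison. The shares over all genes had the same minimum. In the dme library 18 of 20 compared genes were below the pure range and none above, beside 14.9% of 8334 genes below and 18.3% above. In the fie library the same 18 of 20 were below and none above, beside 17.2% of 8310 genes below and 20.1% above. In the met1 library 3 of 21 were below, beside 12.2% of 7885 genes below and 7.77% above. The 1 gene above, PSAD2, reached the mean of 5 CPM only through its met1 value, so its place was fixed by that value and is not read as a result. Both dme and fie are set against the same pure libraries, so their counts are not independent.

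**Figure D5:**
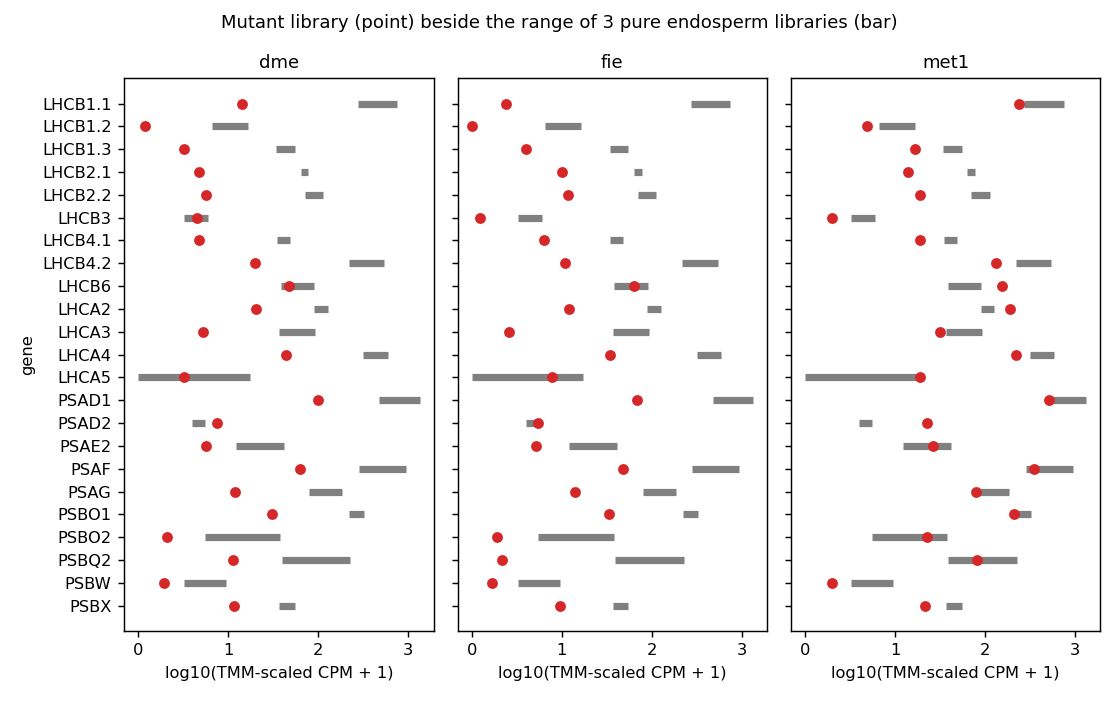
Level of the 23 genes in the dme, fie and met1 libraries (red points) beside the range of the 3 pure endosperm libraries (grey bars), as log10 of TMM-scaled CPM + 1. In dme and fie most points lie left of their bars and LHCB6 lies within its bar; in met1 PSAD2, LHCB6, LHCA2 and LHCA5 lie to the right.

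LHCB1.1 was among the genes furthest below. It stood at 13.2 CPM in the dme library (exact Poisson 95% interval 10.3 to 16.6, counting error only) and at 1.4 CPM in the fie library (0.512 to 3.04), against a lowest pure value of 274 CPM. In the met1 library it was at 236 CPM. PSAD1 was at 99.5 CPM in dme and 67.9 CPM in fie, against a lowest pure value of 476 CPM, and PSAF at 62.2 and 47.7 CPM against 283 CPM. LHCB4.2 was at 18.7 CPM in dme and 10.0 CPM in fie against 218 CPM. PSBQ2 differed between the mutants, with 10.3 CPM in dme and 1.16 CPM in fie (5 reads), against 38.1 CPM. LHCB1.2 had 1 read in dme and none in fie, where 3 reads would be 0.698 CPM. Over the 18 genes the dme values were 2.44-fold to 30.5-fold below the lowest pure library, and over the 17 with reads in fie 2.68-fold to 196-fold.

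LHCB6 did not share this. It stood at 46.3 CPM in dme (252 reads, interval 40.7 to 52.3) and 62.1 CPM in fie (267 reads, interval 54.9 to 70.0), inside the pure range of 37.6 to 89.7 CPM. Both mutant values of LHCB6 were below those of wild-type full endosperm, at 148 and 266 CPM. The other gene compared and not below was LHCA5, at 2.2 and 6.75 CPM, for which no value could be below because pure endosperm replicate 1 had no read. Against the library of the same cross, the median gene of the set was 16.0-fold lower in dme and 9.34-fold lower in fie, while the median over all genes compared moved by 0.00 and 0.04 on the log2 scale. These medians leave out genes with no read in 1 of the 2 libraries, which for the set was LHCB1.2 in fie. PSAD2, with 6.43 CPM in dme and 4.42 CPM in fie, LHCB3, with 3.49 and 0.233 CPM, and PSBW, with 0.918 and 0.698 CPM, were too low to be compared.

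Other pathway lists were counted in the same way. In dme, 3 of 8 chlorophyll synthesis genes, 7 of 9 Calvin cycle genes, 4 of 6 electron transport genes and 1 of 4 regulators were below the pure range. In fie these counts were 6, 6, 4 and 2, and in both mutants none was above. The same libraries held 2.14% to 4.43% of their reads in seed coat genes, against at most 0.346% in pure endosperm, with 8 of 9 compared seed coat genes above the range in dme and 5 of 9 in fie. Compared endosperm genes went both ways, with 2 above and 4 below of 6 in dme and 3 above and 3 below of 7 in fie. In met1, 2 of 4 were below and 0 above. EPR1, an endosperm marker, was at 388 CPM in dme and 64.4 CPM in fie, against 9442 to 189319 CPM in pure endosperm, while AGL62, an early endosperm gene, was at 105 and 83.7 CPM against at most 0.509 CPM. The part of these shares and of seed stage in the lower levels was not tested. In the met1 library EPR1 was at 194994 CPM, and 7 of 9 seed coat genes were above the pure range.

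In the met1 library LHCB1.3 (15.8 CPM), LHCB2.1 (12.8 CPM) and LHCB2.2 (17.7 CPM) were below the pure range. PSAD2 had 21.7 CPM, against at most 4.49 CPM in pure endosperm, and entered the comparison only through that met1 value. LHCB6 at 152 CPM and LHCA2 at 187 CPM lay above the highest pure library by less than 2-fold. Without the LCM-titled library in the range, 8 genes were below and 2 above, and with the full endosperm libraries added to it LHCB2.2 alone remained.

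Maternal shares in the mutants were read against the range of the pure libraries. A share counted as outside when it lay more than 10 percentage points beyond the pure range, among genes with at least 10 reads in each library. That range mixes both cross directions, so a Col bias widens it. LHCB1.3, at 27.7% to 95.8% maternal in pure endosperm, had no room to count as more maternal, and LHCB1.1, at up to 89.5%, almost none. In the dme library, where 88.9% of all reads were maternal, 0 of 16 compared genes were outside, beside 47.4% of 3565 genes more maternal and 1.21% less maternal. The median difference from the same-cross library was 1.04 points for the set and 16.6 points over all genes compared. In the fie library 1 of 13 was more and 1 less maternal, beside 24.9% of 3470 genes more and 2.31% less. In the met1 library 1 of 16 was more and 2 less maternal, beside 16.6% of 3380 genes more and 4.32% less. The median differences from the same-cross library were 3.43 points for the set and 10.7 points over all genes in fie, and -4.20 and 7.45 points in met1. These differences between the set and all genes were not tested.

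Single genes in these libraries had wide intervals. PSAD1 was 68.3% maternal in dme (370 of 542 reads, exact binomial 95% interval 64.2% to 72.2%), beside 67.0% in the wild-type library of that cross. LHCB6 was 63.9% maternal in dme (57.6% to 69.8%) and 64.4% in fie (58.4% to 70.2%). LHCB2.2 was 97.8% maternal in fie (45 of 46 reads, 88.5% to 99.9%), against 77.4%, 80.3% and 46.1% in pure endosperm, the last from the same cross. LHCA2 was 47.9% maternal in fie (33.3% to 62.8%), against 60.9% to 68.1%. In met1 LHCB4.1 was at 88.9% (16 of 18 reads, 65.3% to 98.6%), LHCB1.3 at 12.5% (2 of 16 reads, 1.55% to 38.3%) and PSBQ2 at 35.8% (25.4% to 47.2%). At a margin of 20 points PSBQ2 was still outside in met1 and no gene in fie. However, PSBQ2 was 33.1% maternal in wild-type full endosperm replicate 2, which came from the same cross direction as met1 and is not part of the pure range. With at least 30 reads required in each library, 9 genes were compared in met1 and none of these 3 was among them, PSBQ2 because pure endosperm replicate 1 held 17 reads.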

How the data were processed

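The authors deposited, for each library, the count of reads per gene that matched its cDNA model better in Col, and of those that matched better in Ler, per the readme beside the files. Bowtie is named in the submitters' processing notes. Not given in the sources used here are its version, the gene annotation, whether strand was used and how reads matching several genes were counted. The genes of the set and all gene lists were chosen with earlier results of these data known. Columns were renamed maternal and paternal by cross. Totals were fitted with edgeR 4.0.16 (R 4.3.3; TMM, filterByExpr, robust quasi-likelihood), with the library set as a block for embryo and the cross direction for full endosperm. Allele counts were fitted with 1 term per library, Col-against-Ler terms per tissue and a parent term per group, for genes with 10 reads in each cross direction. Each adjusted p is Benjamini-Hochberg over all genes tested, and SEs are the log2 value divided by the square root of the F statistic. DESeq2 1.42.0 was an alternative. The fits were tested on simulated data. Depth ran from 358142 to 4828301 reads, and intervals cover counting error only. Groups come from titles, and replicate numbers follow accession order. Nothing in the labels ties replicates to separate plants. Spread between libraries, on which the p-values rest, may therefore be technical. No pair of replicates agreed within counting noise (chi-square over its degrees of freedom 13.7 to 59.5), so none was merged. Values in every library are given for the 2 genes with the most reads of each role and all called genes, and PSAD2 and some mutant shares were added after their values were seen. RefSeq sequences are from TAIR10.1, to which all 45 genes matched by locus. The build behind the counts is not named. Counts and sums of the embryo marker list are not reported here.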

Additional observations from a re-analysis of the deposited data

How the results depend on the processing

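The number of genes called higher in embryo was 5 as reported. DESeq2 called 3, the fit without the library-set block 0, the fit of pure and full endosperm together with cross direction in place of the set 0, library totals without TMM 14 and the fit without the LCM-titled libraries 9, of 22 or 23 tested. Leaving out 1 library at a time gave 1 to 10. No gene was called lower in embryo under any of these. Estimates below 0 numbered 0 of 22 in the reported fit, 1 of 22 with DESeq2 and 0 to 4 with 1 library left out. For genes higher in full than in pure endosperm, 0 in the reported fit became 1 with DESeq2, 1 without a filter beyond 1 read, 1 without the direction term, 3 without the LCM-titled libraries and 0 to 3 with 1 library left out. For genes lower in full endosperm, 0 became 6 without the LCM-titled libraries and 0 to 6 with 1 library left out. The number of genes with a parental bias in full endosperm was 5 when set against the median ratio of all genes and 0 to 1 with 1 library left out. It stayed at 0 in pure endosperm, in embryo and for their difference under every alternative that could be fitted. Without embryo replicate 3 the embryo allele terms could not be fitted, as no Ler mother remained. Genes with a Col or Ler bias numbered 5 in endosperm, all toward Col, and became 3 to 7 with 1 library left out. The 5 in embryo, also all toward Col, became 3 with DESeq2 and 3 to 6 with 1 left out. LHCA5, toward Ler, was among those gained in both tissues. Of single genes, LHCB1.1 and LHCB1.3 kept their Col calls in both tissues, and PSBQ2 in endosperm, under all alternatives that were run. Among mutants, the 18 genes below in dme and in fie stayed within 1.5 times that count under every alternative. In met1, 4 genes outside in level became 10 without the LCM-titled library in the range and 1 with the 5 pure and full libraries as the range. The 4 include PSAD2, whose place was fixed by its met1 value and is not read as a result. For the share, dme went from 0 to 1 without the LCM-titled library, fie from 2 to 0 at 20 points, and met1 from 3 to 1 at 20 points, 5 without the LCM-titled library and 0 at a minimum of 30 reads. The causes were not tested. Library sets paired embryo with pure endosperm in the reported fit, from the titles, and the fit without that block is the one with 0 calls. No other paired analysis was possible because the labels give no replicate numbers. Genes under 10 reads per cross direction were beyond the allele tests.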
